A study of Bos taurus with 24 samples.

Results

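The class II histone deacetylases described here were the 6 genes HDAC4, HDAC5, HDAC6, HDAC7, HDAC9 and HDAC10 in bovine dermal fibroblasts exposed to lipopolysaccharide (LPS). They were picked by gene symbol from 27550 rows with a symbol, which held 27371 distinct symbols, and HDAC9 leads because its level at hour 8 post-LPS and the difference between breeds at that hour had already been seen. All 6 members had a row, and all 6 passed the filter on low counts in every comparison. HDAC9 values that involve hour 8 are therefore a description, with no test, and support nothing further.

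The cultures came from shoulder skin of 4 Angus (beef) and 4 Holstein (dairy) heifers aged 19 months. Each animal gave 1 culture, which was cryopreserved at passage 3, revived and sampled 3 times: without LPS (0 h), and after 2 h and 8 h with 100 ng/ml LPS, a component of the outer membrane of Gram-negative bacteria. This gave 6 groups of 4 samples (Angus and Holstein at 0, 2 and 8 h) and 24 RNA-seq libraries of 51014538 to 104406293 counts, in which duplicate wells were pooled before RNA extraction. With 1 culture per animal an animal cannot be told apart from its culture. No culture without LPS was sampled at 2 h or 8 h, so LPS cannot be told apart from time after 0 h. Changes from 0 h are called responses below in that sense only. In these bulk samples fewer cells of a type and less RNA per cell cannot be told apart.

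Class II histone deacetylases fall into class IIa (HDAC4, HDAC5, HDAC7 and HDAC9) and class IIb (HDAC6 and HDAC10). Class IIa proteins shuttle between nucleus and cytoplasm. In the nucleus they bind MEF2 transcription factors and bring co-repressor complexes that hold HDAC3, and when kinases such as the CaM kinases, protein kinase D or the SIK kinases phosphorylate them they bind 14-3-3 proteins and leave the nucleus. HDAC6 removes acetyl groups from tubulin in the cytoplasm, and HDAC10 acts on acetylated polyamines. Class IIa activity is thus set largely by location and phosphorylation, which mRNA counts do not measure.

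The levels below are library-scaled counts (CPM, with TMM scaling), and differences are log2 fold changes with standard errors (SE) from the edgeR likelihood-ratio test over all rows that passed the filter. FDR is the Benjamini-Hochberg value over all those rows. A row was called at FDR under 0.05, and the stricter threshold also asked for a fold change of at least 2 and an average CPM above 1. Transcript lengths were not used, so levels are compared between samples and not between genes.

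Before the members, the libraries themselves were checked. All 10 fibroblast markers listed reached 1 CPM in every library, with a summed level of 37870 to 124700 CPM, whereas KRT1, KDR, CD79A, MYOD1 and MYOG, which mark keratinocytes, endothelium, B cells and skeletal muscle, stayed under 0.1 CPM throughout. Other genes on the lists of other cell types were present: MYH11 of smooth muscle at 15.8 to 44.1 CPM, CD68 of macrophages at 1.35 to 4.34 CPM, VWF of endothelium at 0.513 to 3.28 CPM and PMEL of melanocytes at 0.793 to 2.71 CPM. Averaged over the 24 libraries, 1 CPM was reached by 1 of 4 endothelial, 1 of 5 leukocyte, 1 of 4 melanocyte, 1 of 5 keratinocyte and 2 of 5 muscle markers, and their part in the results was not tested. Keratinocyte markers summed to 11.4, 11.1 and 13.7 CPM at 0, 2 and 8 h in 1 Holstein culture, with KRT5 up to 10.2 CPM. In 4 libraries, 3 of them 0 h samples (Holstein animals 2 and 4, Angus animal 4) and 1 a 2 h sample (Angus animal 3), each count on COL1A1 carried 66.2 to 67.1 covered bases, against 111.8 to 119.0 in the other 20. For the members this measure overlapped between both sets of libraries (HDAC9: 80.5 to 83.9 and 78.6 to 90.3), and values without the 4 are given where leaving them out ended a call.

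HDAC9, a class IIa member that lacks strong catalytic activity of its own and acts through partners, occupied 201651 bp on chromosome 4 (27066696 to 27268346, plus strand, UMD v3.1), and its row collected 21073 counts over the 24 libraries. In un-stimulated Angus cultures its level was 17.6, 12.4, 13.9 and 12.7 CPM in animals 1 to 4, a mean of 14.2 ± 2.37 CPM (SD, n = 4). The Holstein cultures held 15.3, 19.6, 12.7 and 21.0 CPM at the same hour, a mean of 17.1 ± 3.81 (SD, n = 4). The breeds overlapped before LPS.

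Hour 2 brought values near those of hour 0 in each animal. Angus cultures were at 20.3, 11.2, 12.7 and 12.6 CPM (14.2 ± 4.13, SD, n = 4). Holstein cultures were at 14.7, 18.3, 11.4 and 19.2 CPM (15.9 ± 3.57, SD, n = 4). Angus animal 1 was the highest Angus culture at both hours, and the breeds again overlapped.

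By hour 8 post-LPS every culture stood below its own level at 0 h. The Angus cultures held 8.89, 3.06, 4.03 and 9.62 CPM, a mean of 6.40 ± 3.34 (SD, n = 4), while the Holstein cultures held 2.25, 2.67, 2.19 and 1.47 CPM, a mean of 2.15 ± 0.499 (SD, n = 4). All 4 Holstein values lay below all 4 Angus values. Behind the Holstein values at 8 h were 225, 215, 134 and 147 counts, far above the 3 counts that correspond to 0.0287 to 0.0588 CPM in these libraries.

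Relative to its own 0 h sample, HDAC9 at 8 h remained at 0.506, 0.247, 0.289 and 0.758 of the starting level in Angus animals 1 to 4. The Holstein animals remained at 0.147, 0.137, 0.172 and 0.0701. Each Holstein culture thus kept a smaller share than any Angus culture. Ordered by mean, the groups ran Holstein 0 h, Holstein 2 h, Angus 2 h, Angus 0 h, Angus 8 h and Holstein 8 h. The first 4 groups overlapped one another. Angus at 8 h lay below all of these, and Holstein at 8 h lay below Angus at 8 h without overlap.

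**Figure D1:**
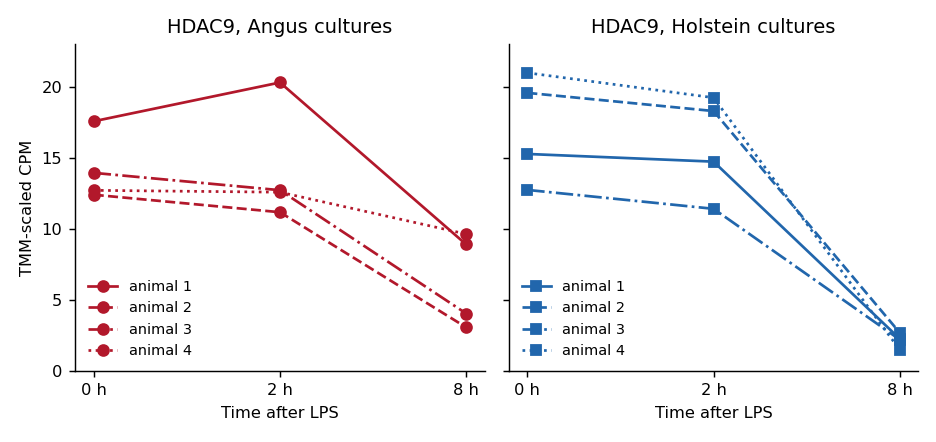
HDAC9 level (CPM, vertical axis) against hours of LPS (0, 2 and 8 h, horizontal axis), with 1 line per animal and 1 panel per breed. All 8 lines end below their start, at 1.47 to 2.67 CPM in the Holstein panel and at 3.06 to 9.62 CPM in the Angus panel.

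Fitted over both breeds, the HDAC9 log2 fold change from 0 h to 8 h was −1.88 (SE 0.338, 95% interval −2.55 to −1.22), a fold change of 3.69. In Holstein cultures alone it was −3.0 (SE 0.224, −3.44 to −2.56), a fold change of 7.99. Angus cultures alone gave −1.15 (SE 0.357, −1.85 to −0.451), a fold change of 2.22. The Angus SE was the larger, and animals 1 and 4 had the smallest drops there. Leaving out each animal in turn kept the Holstein estimate between −3.13 and −2.75 and the Angus estimate between −1.46 and −0.980.

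Between breeds at 8 h the HDAC9 level was lower in Holstein cultures by a fold change of 2.97 (log2 −1.57, SE 0.383, 95% interval −2.32 to −0.820). The difference between the 8 h responses of the breeds, fitted as an interaction, was −1.85 (SE 0.443, −2.72 to −0.984) on the log2 scale. It spanned −2.02 to −1.54 over single animals left out and was −1.51 without the 4 libraries counted otherwise, where the Angus estimate at 8 h was −1.20 and the Holstein estimate −2.70. At 2 h the log2 change from 0 h was −0.11 in Holstein cultures (95% interval −0.529 to 0.305) and 0.001 in Angus cultures (−0.430 to 0.432). Before LPS the breed difference was 0.28 (−0.103 to 0.657).

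One HDAC9 comparison used none of the 0 h and 8 h samples on which HDAC9 was chosen. It is not fully independent of that choice, since the 2 h samples come from the same 8 cultures. At 2 h Holstein and Angus cultures did not differ beyond their spread (log2 0.16, SE 0.238, 95% interval −0.304 to 0.627, FDR 0.683 by edgeR's likelihood-ratio test).

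HDAC5, a class IIa member that is exported from the nucleus when CaM kinases or protein kinase D phosphorylate it, had the other large change of the family. Its row lies on chromosome 19 (44538303 to 44575554, minus strand) and held 173744 counts. Angus cultures had 96.9, 94.2, 144.6 and 108.9 CPM at 0 h, then 88.6, 87.6, 96.0 and 95.6 CPM at 2 h, and 68.6, 59.2, 74.4 and 72.2 CPM at 8 h. Holstein cultures had 128.9, 113.1, 105.4 and 119.8 CPM at 0 h, then 115.4, 110.1, 103.6 and 118.2 CPM at 2 h, and 58.4, 52.2, 55.3 and 55.1 CPM at 8 h. In both breeds every 8 h value lay below every value at 0 and 2 h.

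The group means of HDAC5 were 111.2 ± 23.2, 91.9 ± 4.49 and 68.6 ± 6.73 CPM over the hours in Angus cultures, and 116.8 ± 9.95, 111.8 ± 6.41 and 55.2 ± 2.55 CPM in Holstein cultures (SD, n = 4 each). HDAC5 fell at 8 h in both breeds together (log2 −0.89, SE 0.108, FDR 1.55e-13), with 8 of 8 animals lower. In Holstein cultures the fold change was 2.11 (log2 −1.08, SE 0.0923, FDR 3.07e-28), which also passed the stricter threshold. Angus cultures showed a log2 change of −0.70 (SE 0.164, FDR 0.00177). These 3 calls held with any single animal left out and without the 4 libraries counted otherwise, although edgeR's quasi-likelihood test gave FDR 0.0556 for Angus.

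HDAC5 was lower at 2 h than at 0 h in 8 of 8 animals. The log2 change of −0.17 did not pass the test across both breeds (FDR 0.298), whereas the fit with the animal as a block gave −0.16 (FDR 0.0267). For Angus alone the log2 change was −0.28 (FDR 0.294, and 0.0264 with the animal as a block), and for Holstein alone −0.07 (FDR 0.781, and 0.398 with the block).

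The estimated breed difference of HDAC5 was above 0 at 2 h and below 0 at 8 h, and a change between these hours was not tested. Before LPS the breeds did not differ beyond their spread (log2 0.07, FDR 0.818). At 2 h all Holstein cultures lay above all Angus cultures (log2 0.28, SE 0.103, FDR 0.0401). That call was kept only without Angus animal 3 or Holstein animal 3, and reached FDR 0.148 when other animals were left out. At 8 h all Holstein cultures lay below all Angus cultures (log2 −0.31, SE 0.106, FDR 0.0278), a call kept without Angus animal 2, Angus animal 3 or Holstein animal 1 and lost, with FDR up to 0.117, without any other animal. The interaction with breed at 8 h was −0.38 (SE 0.187, 95% interval −0.751 to −0.0186) and did not pass (FDR 1.0), but with the animal as a block it was −0.40 with FDR 0.0210.

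HDAC7, the class IIa member known for its part in endothelium and in developing T cells, moved in opposite directions at 2 and 8 h. Its row on chromosome 5 (32635940 to 32667499, plus strand) held 226085 counts and overlapped SLC48A1 on the minus strand by 34 bp, and reads in that overlap can be assigned to either gene only where counting used strand, which is not given in the sources used here. Angus cultures had 98.7, 103.4, 125.7 and 120.8 CPM at 0 h, then 144.9, 135.0, 129.0 and 133.4 CPM at 2 h, and 99.2, 96.0, 110.4 and 88.2 CPM at 8 h. In Holstein cultures the values were 137.2, 128.1, 111.7 and 120.0 CPM at 0 h, 153.4, 158.5, 141.3 and 142.1 CPM at 2 h, and 112.2, 97.7, 98.1 and 101.8 CPM at 8 h. Within each breed all 2 h values lay above all 0 h values.

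HDAC7 rose at 2 h across both breeds (log2 0.26, SE 0.0828, FDR 0.00995), with 8 of 8 animals higher. The call held with any single animal left out (FDR 0.00824 to 0.0470) and without the 4 libraries (FDR 0.0257), and was lost when library totals alone set the scale (log2 0.20, FDR 0.0965). HDAC7 fell at 8 h (log2 −0.24, SE 0.0842, FDR 0.0378), with 7 of 8 animals lower than at 0 h. This second call was kept only without Angus animal 1 or Angus animal 2, reached FDR 0.137 otherwise, and was lost without the 4 libraries (log2 −0.20, FDR 0.253). Within Holstein cultures both changes passed (2 h: log2 0.25, FDR 0.0458, 8 h: log2 −0.28, FDR 0.0315), but each was lost whichever of the 4 animals was left out (FDR 0.0978 to 0.223 and 0.0545 to 0.237) and without the 4 libraries (FDR 0.258 and 0.259). Angus alone gave 0.27 at 2 h (FDR 0.144, and 0.0163 with the animal as a block) and −0.19 at 8 h (FDR 0.584).

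HDAC4, the class IIa member known for its role in cartilage and muscle, was the one member with a higher level at 8 h. It spans chromosome 3 from 118937212 to 119237012 on the minus strand and held 24402 counts. The Angus cultures were at 14.01, 11.3, 13.6 and 15.8 CPM at 0 h, 11.8, 8.27, 9.001 and 13.3 CPM at 2 h, and 18.4, 14.3, 18.3 and 12.4 CPM at 8 h. For the Holstein cultures these were 12.4, 10.1, 10.3 and 9.54 CPM, then 10.7, 7.74, 8.88 and 10.2 CPM, and then 18.2, 13.7, 12.9 and 16.5 CPM. Only in the Holstein cultures did all 8 h values lie above all 0 h values. Angus animals 2 and 4 at 8 h (14.3 and 12.4 CPM) lay below Angus animal 4 at 0 h (15.8 CPM).

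HDAC4 rose at 8 h over both breeds (log2 0.35, SE 0.129, FDR 0.0479), with 7 of 8 animals higher. This call was kept only without Angus animal 4, reached FDR 0.161 when another animal was left out, and was lost without the 4 libraries (FDR 0.106). In the fit with the animal as a block its FDR was 0.00202. Holstein cultures alone rose by 0.54 (SE 0.148, FDR 0.00371), which was lost without Holstein animal 4 (FDR 0.122) and without the 4 libraries (log2 0.44, FDR 0.187). Angus cultures gave 0.21 (FDR 0.703). The difference of the HDAC4 response between breeds did not pass (interaction 0.32, FDR 1.0). At 2 h HDAC4 was lower in 7 of 8 animals, with a log2 change of −0.29 that did not pass (95% interval −0.559 to −0.019, FDR 0.128) unless the animal was a block (−0.29, FDR 0.000276). The corresponding Angus value was −0.37 (FDR 0.234, and 0.000676 with the block).

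**Figure D2:**
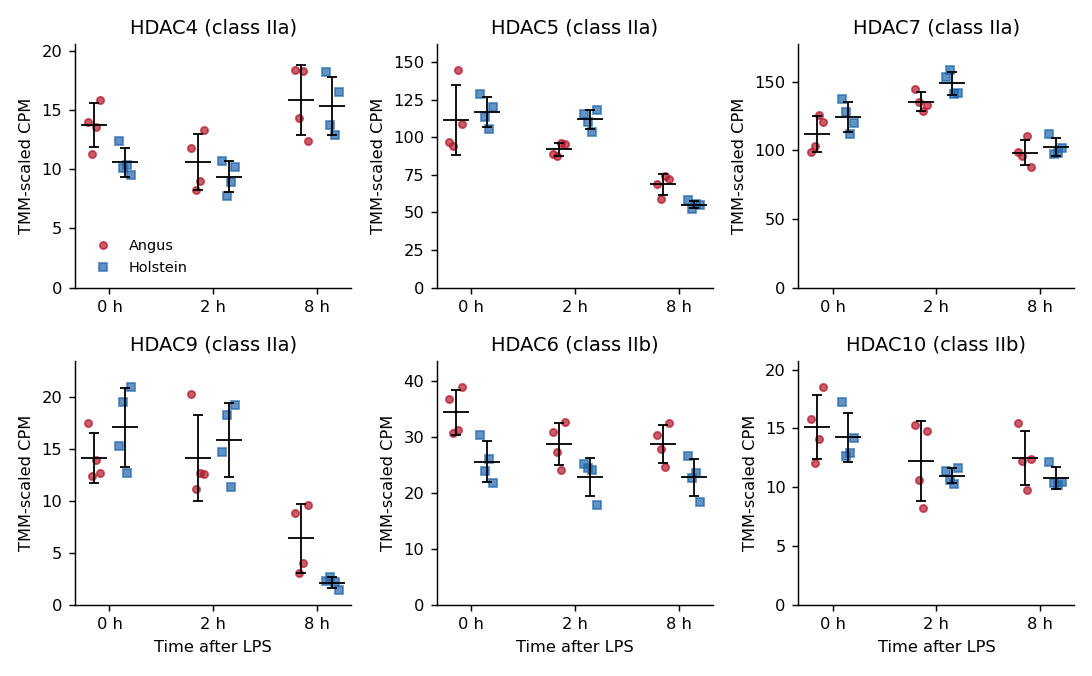
Level of each of the 6 members (CPM, vertical axes starting at 0 and scaled per panel) at 0, 2 and 8 h, with 1 point per sample and the mean ± SD (n = 4) of each breed. HDAC9 and HDAC5 show the lowest values at 8 h in both breeds, HDAC7 the highest at 2 h, and HDAC6 sits lower in Holstein than in Angus cultures before LPS.

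In class IIb, HDAC6 was lower in Holstein cultures before LPS. Its row on chromosome X (91994292 to 92013214, plus strand, 51894 counts) overlapped LOC100848501 on the minus strand by 442 bp. Un-stimulated Angus cultures had 36.7, 30.7, 31.2 and 38.8 CPM and Holstein cultures 30.3, 23.9, 26.1 and 21.7 CPM, so that all Holstein values lay below all Angus values. The difference passed the test (log2 −0.43, SE 0.139, FDR 0.0215). It was kept without Angus animal 2, Angus animal 3 or Holstein animal 1, reached FDR 0.117 without another animal, and was lost without the 4 libraries, of which 3 are 0 h samples (log2 −0.22, FDR 0.696).

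After LPS the HDAC6 difference had the same sign. Angus cultures held 30.8, 27.2, 24.1 and 32.6 CPM at 2 h and 30.2, 27.8, 24.5 and 32.5 CPM at 8 h. Holstein cultures held 25.1, 24.5, 24.01 and 17.9 CPM at 2 h and 26.5, 22.5, 23.5 and 18.3 CPM at 8 h. Both differences missed the threshold (log2 −0.33, FDR 0.104, and −0.34, FDR 0.0873). Without Angus animal 3, whose 2 h library is one of the 4, the 2 h value was −0.41 (FDR 0.0256).

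HDAC6 was lower at 8 h than at 0 h in 8 of 8 animals, by a small amount against the spread between animals (log2 −0.22, FDR 0.308), and the block on animals turned this into a call (−0.22, FDR 1.37e-05). The 2 h change of −0.22 did the same (FDR 0.280, and 0.000126 with the block). Within breeds the block gave FDR 0.00462 at 8 h in Angus cultures (0.378 without it), 0.0267 at 8 h in Holstein cultures (0.532 without it) and 0.0009 at 2 h in Angus cultures (0.263 without it).

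HDAC10 fell at both hours. The row on chromosome 5 (119814025 to 119819426, minus strand) held 23980 counts. Angus cultures were at 15.8, 12.1, 14.1 and 18.5 CPM at 0 h, 15.3, 10.6, 8.26 and 14.8 CPM at 2 h, and 15.4, 12.2, 9.79 and 12.4 CPM at 8 h. Holstein cultures were at 17.2, 12.7, 12.9 and 14.2 CPM at 0 h, 11.4, 10.6, 10.3 and 11.6 CPM at 2 h, and 12.2, 10.3, 10.2 and 10.5 CPM at 8 h. In Holstein cultures the LPS samples lay below all 0 h samples at both hours, while in Angus cultures the hours overlapped.

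Across both breeds the log2 change of HDAC10 was −0.35 at 2 h (SE 0.134, FDR 0.0463, 8 of 8 animals lower) and −0.34 at 8 h (SE 0.118, FDR 0.0329, 7 of 8 lower). The 2 h call was kept without Angus animal 1 or Angus animal 4 and the 8 h call without Angus animal 1 or Angus animal 2. Leaving out any other animal lost them (FDR up to 0.158 and 0.138), as did leaving out the 4 libraries (FDR 0.245 and 0.155), whereas with the animal as a block their FDR was 2.8e-05 and 0.000113. In Holstein cultures the changes were −0.38 (FDR 0.0267) and −0.40 (FDR 0.0259), each lost whichever of the 4 animals was left out (FDR 0.0710 to 0.212 and 0.0720 to 0.181) and without the 4 libraries (FDR 0.0537 and 0.0772). Angus cultures gave −0.31 at 2 h (FDR 0.484, and 0.0324 with the block) and −0.28 at 8 h (FDR 0.563).

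**Figure D3:**
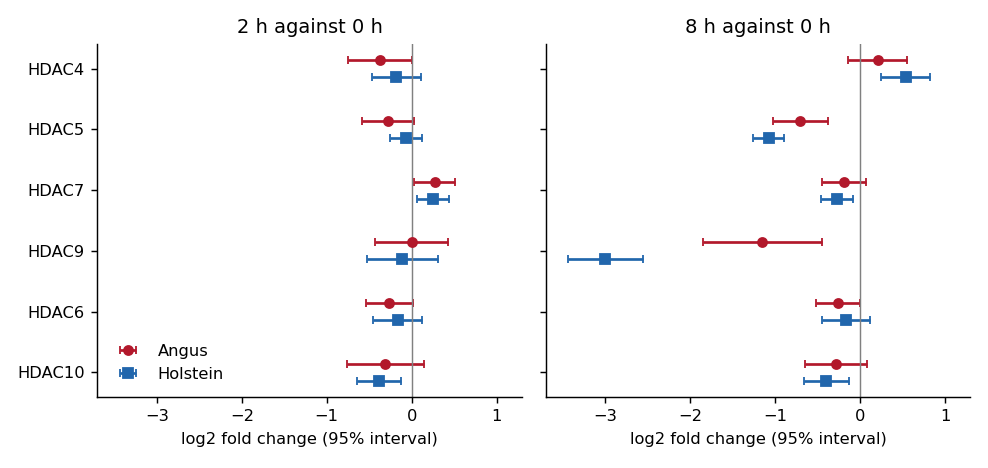
Log2 fold change against 0 h (horizontal axis) of the 6 members at 2 h and at 8 h, in Angus and Holstein cultures, as points with 95% intervals. HDAC9 at 8 h lies farthest from 0 in both breeds, at −3.0 in Holstein and −1.15 in Angus cultures, followed by HDAC5 at −1.08 and −0.70.

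Counted over the family at 8 h across both breeds, 4 of the 5 members other than HDAC9 had FDR under 0.05, where 12.8% of all rows tested did. Of these 4, 1 was higher (HDAC4, beside 6.55% of all rows) and 3 were lower (HDAC5, HDAC7 and HDAC10, beside 6.25%). The median log2 change of the 5 members other than HDAC9 was −0.24, the HDAC7 value, against −0.01 over all rows. Without the 4 libraries, HDAC5 alone of the 5 remained called. At 2 h 2 of the 6 members were called, 1 higher (HDAC7, beside 10.8% of all rows) and 1 lower (HDAC10, beside 11.2%), and the share called of all rows was 22%. With the animal as a block 5 of the 6 were called at 2 h, where 47.5% of all rows were, and at 8 h all 5 members other than HDAC9 were, beside 40.7%.

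Within Holstein cultures 4 of the 5 members other than HDAC9 were called at 8 h (14.7% of all rows), of which HDAC5 passed the stricter threshold that 2.51% of all rows passed, and 2 of the 6 were called at 2 h (17.2%). In Angus cultures 1 of the 5 was called at 8 h (HDAC5, beside 3.9% of all rows) and 0 of the 6 at 2 h (13.8%). For the count of 0 by edgeR, 1 member had an unadjusted p under 0.05, DESeq2 called 0, and the fit with the animal as a block called 5, where it called 35.8% of all rows. The breeds share no samples, and the difference of their responses is the interaction. By edgeR the interaction at 8 h called 0 of the 5 members other than HDAC9 (0.137% of all rows), and with the block it called HDAC5, beside 2.59% of all rows. DESeq2 called 0 of these 5, and 1, HDAC5, had an unadjusted p under 0.05. At 2 h the interaction called 0 (0.437% of all rows), with 0 at an unadjusted p under 0.05 and 0 by DESeq2.

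Between breeds 1 member was called at 0 h (HDAC6, 13.8% of all rows), 1 at 2 h (HDAC5, 20.1%) and, other than HDAC9, 1 of 5 at 8 h (HDAC5, 16.5%). These counts are near the share of all rows. HDAC9 is left out of the 8 h counts because it was chosen for its 8 h values. The comparisons with 0 h share the 0 h samples, so the 2 h and 8 h counts are not independent of each other.

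HDAC9 has large neighbours without a gene symbol, and the rows beside it were examined after the rows had been seen. The interval of 584979 bp between HDAC9 and TWIST1 (27268347 to 27853325) had mean levels of 5.56, 4.43 and 4.18 CPM over the hours in Angus cultures and 6.24, 5.88 and 4.90 CPM in Holstein cultures. It fell at 8 h across both breeds (log2 −0.38, SE 0.115, FDR 0.0129), a call lost without Angus animal 1 (FDR 0.0528) and without the 4 libraries (FDR 0.102). Its breed difference at 8 h was 0.23 (FDR 0.323), with the Holstein mean the higher. In each breed alone the change did not pass (Holstein −0.34, FDR 0.170, Angus −0.41, FDR 0.157) except with the animal as a block (FDR 0.00781 and 0.00797). The interval on the other side of HDAC9 (26760297 to 27066695) stayed at group means of 0.241 to 0.414 CPM and was not tested.

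TWIST1, a transcription factor of mesenchymal cells on the far side of that interval (27853326 to 27855320), had means of 46.1, 34.5 and 39.6 CPM in Angus and 42.8, 36.2 and 30.0 CPM in Holstein cultures. It fell at 2 h (log2 −0.34, FDR 1.44e-05) and at 8 h (−0.36, FDR 0.00352) across both breeds. At 8 h TWIST1 was lower in Holstein than in Angus cultures (log2 −0.40, FDR 0.00393), with a Holstein response of −0.51 (FDR 3.4e-07) and an Angus response of −0.22 (FDR 0.327). The difference of the responses did not pass without the block (interaction −0.30, FDR 1.0). With the animal as a block, 1 of the 5 genes tested around HDAC9 had a lower Holstein response at 8 h, beside 2.59% of all rows. The block also called 1 of 6 lower at 8 h in Angus cultures, beside 20.7%. SNX13, a sorting nexin on the low-coordinate side (26302929 to 26448540), gave 0.10 in Holstein (FDR 0.587) and 0.07 in Angus cultures (FDR 0.872) at 8 h. AHR, the dioxin receptor, fell at 2 h (log2 −1.21, FDR 4.3e-17), from 6.80 to 2.54 CPM in Angus and from 5.80 to 2.94 CPM in Holstein cultures, and stood at 7.02 and 6.64 CPM at 8 h. Of the 11 genes listed around HDAC9, 5 were expressed enough to be tested at 8 h over both breeds, and 1 of these (TWIST1) fell while 0 rose. With the animal as a block 1 was lower and 1 higher, beside 40.7% of all rows.

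**Figure D4:**
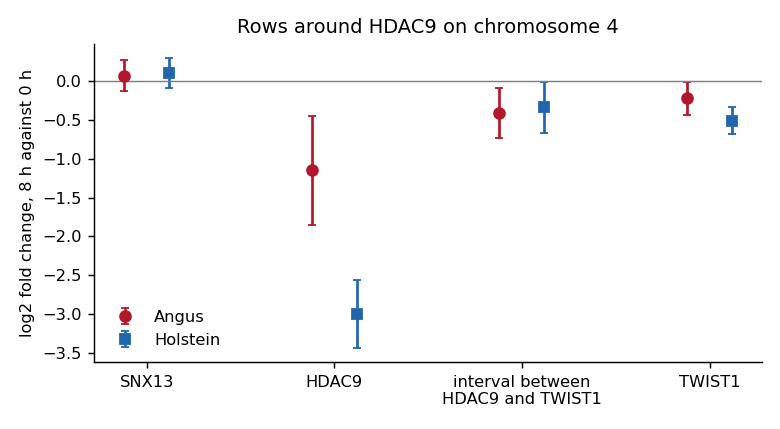
Log2 fold change at 8 h against 0 h (vertical axis, with 95% intervals) of SNX13, HDAC9, the interval between HDAC9 and TWIST1, and TWIST1, in their order along chromosome 4, by breed. HDAC9 lies at −3.0 and −1.15, and the other rows between −0.51 and 0.10.

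The unnamed interval beside HDAC4 at higher coordinates (119237013 to 119457119), into which reads upstream of this minus-strand gene would fall, rose at 8 h across both breeds (log2 0.91, FDR 0.000172). Its means over the hours were 1.63, 1.22 and 2.64 CPM in Angus and 0.937, 1.19 and 2.22 CPM in Holstein cultures. These levels are close to the filter of 1 CPM. The Holstein change was 1.24 (FDR 2.09e-05) and the Angus change 0.70 (FDR 0.030), the latter kept only without Angus animal 4 (FDR up to 0.276 otherwise) and lost without the 4 libraries (FDR 0.0697). On the other side of HDAC4 (118772102 to 118937211) the log2 change was 0.48 in Holstein (FDR 0.00673) and 0.03 in Angus cultures (FDR 0.9747). The Holstein call there was kept only without Holstein animal 1 (FDR up to 0.153 otherwise) and was lost without the 4 libraries (FDR 0.259). Whether these reads belong to HDAC4 transcripts was not tested.

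Lists of related genes follow, to be read beside the shares of all rows called over both breeds, 22% at 2 h and 12.8% at 8 h. Of the 5 class I and class IV genes (HDAC1, HDAC2, HDAC3, HDAC8 and HDAC11), 1 rose and 0 fell at 8 h. That gene was HDAC8, a class I enzyme that acts on cohesin, which went from 17.0 ± 1.33 to 23.8 ± 2.43 CPM in Angus and from 13.4 ± 0.870 to 18.0 ± 1.62 CPM in Holstein cultures (SD, n = 4 each; log2 0.45, SE 0.119, FDR 0.00272). At 2 h edgeR called 0 of the 5, with 0 at an unadjusted p under 0.05 and 0 by DESeq2. With the animal as a block 1 was lower at 2 h, and 1 was higher and 1 lower at 8 h. The block called 47.5% and 40.7% of all rows at these hours. Among 7 sirtuins, the NAD-dependent class III, SIRT1 rose (log2 0.33, FDR 0.00114) and SIRT4 fell (−0.50, FDR 0.000555) at 2 h, and at 8 h SIRT7 was called (−0.23, FDR 0.0290). When the animal was a block 3 were lower at 8 h, beside 40.7% of all rows. The SIRT7 call was kept only without Angus animal 2 or Angus animal 4 (FDR up to 0.109 otherwise) and was lost without the 4 libraries (FDR 0.173). SIRT3, a mitochondrial sirtuin, was higher in Holstein cultures before LPS (3.32 ± 0.328 against 1.63 ± 0.431 CPM, SD, n = 4 each; log2 1.02, FDR 0.000355), as it was at 2 h (0.98, FDR 0.00440) and 8 h (log2 1.005, FDR 0.0115). The 0 h call was lost without the 4 libraries (FDR 0.0897), and the 8 h call without Angus animal 1, 2 or 4 (FDR up to 0.0667).

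Among the 4 MEF2 factors, which class IIa deacetylases bind, 2 rose at 2 h across both breeds (22% of all rows were called) and 1 fell at 8 h (12.8%). At 8 h 3 had an unadjusted p under 0.05 by edgeR and DESeq2 called 2. With the animal as a block 2 were higher and 1 lower at 2 h, and all 4 were lower at 8 h. The block called 47.5% and 40.7% of all rows at these hours. MEF2A went from 88.8 ± 11.4 to 129.0 ± 10.5 and then 70.9 ± 5.73 CPM in Angus cultures, and from 112.8 ± 11.9 to 144.1 ± 12.5 and then 80.2 ± 5.00 CPM in Holstein cultures (SD, n = 4 each). Its log2 change was 0.43 at 2 h (FDR 0.000642) and −0.42 at 8 h (FDR 0.00169), the same order of directions as HDAC7. MEF2D rose at 2 h (0.49, FDR 0.0259), which was lost without Holstein animal 1, 2 or 3 (FDR up to 0.0853). In Holstein cultures, where 14.7% of all rows were called, all 4 factors fell at 8 h, MEF2A by 0.49 (FDR 9.94e-05), MEF2B by 0.85 (FDR 0.0452), MEF2C by 0.48 (FDR 0.0424) and MEF2D by 0.45 (FDR 0.00504) on the log2 scale. MEF2B kept the call only without Holstein animal 3 (FDR up to 0.297 otherwise), MEF2C only without Holstein animal 2 (up to 0.329), and without the 4 libraries MEF2B, MEF2C and MEF2D all lost it (FDR 0.467, 0.156 and 0.0578). In Angus cultures edgeR called 0 at 8 h, with 1 at an unadjusted p under 0.05 and 0 by DESeq2. There the block called 2 lower, beside 20.7% of all rows. No interaction of breed and LPS passed for a MEF2 factor by edgeR or DESeq2 (1 did at 8 h with the block, beside 2.59% of all rows). MEF2C was lower in Holstein cultures at every hour (log2 −0.81, −0.66 and −0.90, FDR 0.000513, 0.0131 and 0.000482). The 2 h call was lost without Angus animal 4, Holstein animal 3 or Holstein animal 4 (FDR up to 0.0740), and the 0 h call without the 4 libraries (FDR 0.181). MEF2D went the other way, higher in Holstein cultures at 0 h (log2 0.50, FDR 0.00610) and at 2 h (0.70, FDR 8.32e-07). Its 0 h call was lost without the 4 libraries (FDR 0.260), and at 8 h MEF2D was not called between breeds.

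Of 15 co-repressors and partners, 14 were tested, and 4 rose and 4 fell at 2 h across both breeds. BCOR, a co-repressor that works with BCL6, rose past the stricter threshold (log2 1.14, SE 0.107, FDR 3.74e-23), from 27.2 ± 2.58 to 59.5 ± 6.13 CPM in Angus and from 33.1 ± 1.59 to 73.3 ± 7.25 CPM in Holstein cultures (SD, n = 4 each), and was at 26.1 and 27.8 CPM at 8 h. SRF, a transcription factor, rose at 2 h (0.50, FDR 0.000865), while NCOR1, a nuclear receptor co-repressor, fell (−0.21, FDR 0.00765). At 8 h 0 rose and 3 fell, namely TBL1X (−0.33, FDR 0.000196), NCOR1 (−0.23, FDR 0.00373) and CTBP2 (−0.20, FDR 0.0310). With the animal as a block 4 were higher and 7 lower at 2 h, beside 47.5% of all rows. At 8 h the block called 1 higher and 7 lower, beside 40.7%. CTBP2 kept its call only without Angus animal 2 or Angus animal 4 (FDR up to 0.165 otherwise). Without the 4 libraries CTBP2 lost its call (FDR 0.210) and NCOR1 lost both of its calls (FDR 0.0802 and 0.0558), and NCOR1 lost that at 2 h without Angus animal 3 too (FDR 0.0529). The list's median was −0.07 at 2 h and −0.14 at 8 h.

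For the kinases and phosphatases that set the phosphorylation of class IIa deacetylases, 18 of 20 were tested. At 2 h 1 rose and 4 fell, a share near the 22% of all rows, and at 8 h 2 rose and 2 fell, beside 12.8%. With the animal as a block 5 were higher and 5 lower at 2 h, beside 47.5% of all rows. At 8 h the block called 4 higher and 7 lower, beside 40.7%. SIK1, a salt-inducible kinase, went from 15.6 ± 1.71 to 26.8 ± 7.83 and 25.1 ± 5.82 CPM in Angus and from 13.2 ± 2.54 to 28.5 ± 3.64 and 24.8 ± 3.64 CPM in Holstein cultures (SD, n = 4 each; log2 0.94, FDR 2.85e-09, and 0.79, FDR 1.73e-07). CAMK2G, the gamma chain of CaM kinase II, fell at both hours (−0.55, FDR 1.95e-09, and −0.70, FDR 5.63e-13), from 34.1 to 23.4 and 22.4 CPM in Angus and from 32.2 to 22.1 and 18.7 CPM in Holstein cultures. At 8 h SIK3 rose (0.39, FDR 0.000174) and PRKD1, a protein kinase D, fell (−0.34, FDR 0.000412). CAMK4 was lower in Holstein cultures at every hour (−0.48, −0.56 and −0.52, FDR 0.00790, 0.000388 and 0.00115), although the 0 h call was lost without the 4 libraries (FDR 0.425).

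None of the 6 of 7 14-3-3 genes that were tested passed at 2 h or 8 h across both breeds by edgeR. At 2 h 1 had an unadjusted p under 0.05 and DESeq2 called 1, and at 8 h both of these counts were 0. With the animal as a block 3 were higher at 2 h, beside 47.5% of all rows, and 1 was lower at 8 h, beside 40.7%. YWHAH, the eta form, was lower in Holstein cultures at each hour (log2 −0.39, −0.34 and −0.39, FDR 0.0178, 0.0306 and 0.0101). Leaving out Angus animal 1, Angus animal 4, Holstein animal 2 or Holstein animal 4 ended each of these calls (FDR up to 0.105, 0.127 and 0.0698), Holstein animal 3 ended those at 0 and 2 h, and Angus animal 2 or Holstein animal 1 that at 2 h. The 0 h call was also lost without the 4 libraries (FDR 0.602).

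Genes under MEF2 control formed the last list, with 14 symbols, of which 13 had a row and 8 were tested over both breeds. At 2 h 3 rose and 2 fell, and at 8 h 3 rose and 1 fell. With the animal as a block 3 were higher and 3 lower at 2 h, beside 47.5% of all rows. At 8 h the block called 3 higher and 5 lower, beside 40.7%. The 3 that rose at both hours were the nuclear receptors NR4A1 (log2 2.87, FDR 2.44e-23, and 1.11, FDR 0.00176), NR4A2 (1.35, FDR 5.29e-15, and 1.45, FDR 7.89e-13) and NR4A3 (2.48, FDR 7.66e-24, and 1.76, FDR 3.46e-08), which are early-response genes of many stimuli. NR4A1 went from 16.9 ± 4.14 to 77.6 ± 36.7 CPM at 2 h in Angus and from 12.3 ± 2.38 to 135.7 ± 37.7 CPM in Holstein cultures (SD, n = 4 each). KLF2 fell at 2 h (−0.99, FDR 1.91e-06), and KLF6 fell at both hours (−0.46, FDR 1.22e-05, and −0.51, FDR 1.39e-08). KLF4 differed between breeds in its 2 h response (interaction 0.75, FDR 0.0371), which was kept only without Angus animal 2 or Angus animal 3 (FDR up to 0.328 otherwise) and was lost without the 4 libraries (FDR 0.225). The list's median was 0.13 at 2 h and −0.22 at 8 h, so it did not share the sign of the NR4A genes at 8 h.

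Finally, the genes whose levels followed HDAC9 most closely over the 24 samples were sought among 11266 genes, by Pearson's r of log2(CPM + 1). The 5 most alike were LMTK2 (r = 0.921), HDAC5 (0.886), DIP2C (0.884), CAND2 (0.877) and RCSD1 (0.873). The 5 most opposed were SIPA1L2 (−0.961), TSFM (−0.938), HERC5 (−0.927), SAA3 (−0.923) and OAS1 (−0.922). HERC5 and OAS1 are interferon-induced and SAA3 is an acute-phase gene. Among the other members r was 0.606 for HDAC7, 0.408 for HDAC10, 0.281 for HDAC6 and −0.599 for HDAC4.

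These values are a description, without a p: the samples share 8 animals, and the 8 h samples lie apart from the rest on HDAC9, so the pooled r spans separate clusters. Within the 8 samples at 8 h, r with HDAC9 was 0.895 for LMTK2, 0.792 for HDAC5, 0.840 for HDAC6, −0.983 for SIPA1L2, −0.899 for SAA3 and −0.848 for OAS1. Within the 16 samples at 0 and 2 h the values were 0.485, 0.261, −0.320, −0.573, −0.200 and 0.157 in the same order. HDAC10, HDAC7 and HDAC4 had an r of 0.665, −0.470 and −0.048 at 8 h, and of 0.234, 0.147 and −0.045 at 0 and 2 h. At 8 h all Holstein samples lay below all Angus samples on HDAC9 and on HDAC5. The 8 h values of r thus span the breed difference that HDAC9 was chosen for, and no r within a breed was computed. Closeness of HDAC5 and HDAC9 was thus weaker among the samples at 0 and 2 h, and at 8 h it cannot be told apart from the breed difference. Without the 4 libraries counted otherwise, 2 of the 5 most alike and 4 of the 5 most opposed genes were again among the 5.

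**Figure D5:**
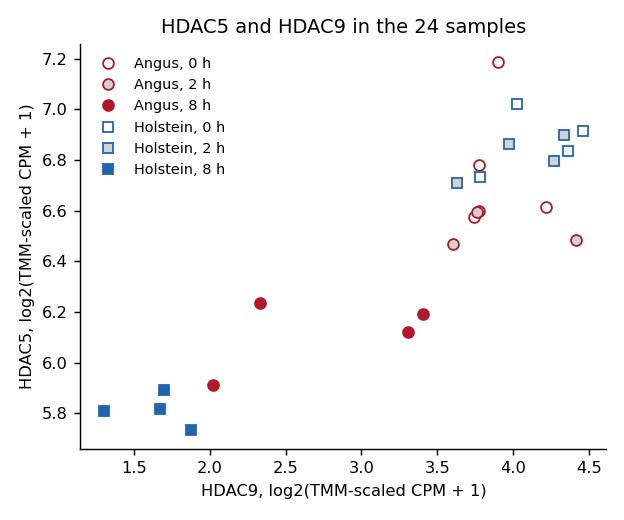
HDAC5 against HDAC9 in the 24 samples, both as log2(CPM + 1), with symbol and colour giving the breed and the fill the hour. The 8 samples at 8 h lie low on both axes and apart from the 16 at 0 and 2 h, with the 4 Holstein samples at 8 h lowest on both.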

How the data were processed

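RNA-seq was analysed in 24 samples of 8 cultures (2 breeds, 3 hours). Poly-A libraries were aligned by the authors to UMD v3.1 with NextGENe 2.3.4 after base calling with CASAVA 1.7, and counted per annotated interval, introns included. Whether counting used strand is not given in the sources used here, and without it reads of genes overlapping on opposite strands cannot be told apart. The deposited tables hold read counts and, as a coverage signal, average and maximum depth per interval (59846 rows, of which 27550 carry a symbol). The values used are the deposited counts, and the coverage signal served only to compare covered bases per count between libraries. Of several rows for 1 symbol, the row with the most counts was taken.

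Counts were tested with the likelihood-ratio test of edgeR 4.0.16 (R 4.3.3), with TMM scaling and, after the study's methods, a minimum of 1 CPM reached by no fewer than 50% of samples compared, and Benjamini-Hochberg FDR over all rows. The 11 comparisons were LPS at 2 h and 8 h against 0 h over both breeds and within each, Holstein against Angus at each hour, and 2 interactions. The members and lists were chosen with earlier results of these data known, as was the rule for named genes: all 6 members, the 5 genes most like and most unlike HDAC9, and up to 4 genes per list and comparison with the smallest FDR. Rows beside HDAC9 and HDAC4 were chosen after rows were seen. Alternatives were DESeq2 1.42.0, the quasi-likelihood test, other scalings and filters, rows with a symbol only, a block on the replicate number, and each animal or 4 libraries left out.

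The numbers of the labels pair hours within an animal, since the same culture was sampled 3 times: deviations from the group mean correlated within an animal with a mean r of 0.658 (0 h and 2 h, lowest 0.545) and 0.619 (0 h and 8 h, lowest 0.533). The study's methods do not use the block, so it is given where it changes a call of a member between hours, and for part of the lists and intervals. Summed counts were 51014538 to 104406293, and 3 counts correspond to 0.0287 to 0.0588 CPM, which covers counting error only. No 2 samples of a group looked like 1 library deposited again, since the chi-square over degrees of freedom of their 36 pairs ran from 33.0 to 461.2. Scripts ran on Python 3.11.15 with pandas 2.3.3 and were tested on simulated data. One gene of the co-repressor list is not reported here.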

Additional observations from a re-analysis of the deposited data

Results flagged for a closer look

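In 36 groups of 4 samples (6 members, 6 groups), the distance of the highest or lowest sample to the next was set against the group's range. In 3 groups 1 sample stood apart by this measure: HDAC6 in Holstein animal 4 at 2 h (17.9 CPM), HDAC9 in Angus animal 1 at 2 h (20.3 CPM) and HDAC10 in Holstein animal 1 at 8 h (12.2 CPM). Chance alone marks about 1 group in 20.

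The response of HDAC9 at 8 h differed between the breeds (interaction −1.85 on the log2 scale). HDAC9 was chosen for this difference, so the value is a description.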

How the results depend on the processing

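The number of the 6 members (HDAC9 included) at FDR under 0.05 moved with the processing as follows. DESeq2 called 2 between breeds at 0 h. RLE size factors gave 1 at 2 h over both breeds. A filter of at least 10 counts gave 1 at 2 h and 2 at 8 h over both breeds, 1 at 2 h in Holstein cultures, 1 at 8 h in Angus cultures and 0 between breeds at 2 h. Library totals alone gave 1 at 2 h and 3 at 8 h over both breeds, 1 and 3 in Holstein cultures, 1 at 8 h in Angus cultures, and 2 and 0 between breeds at 0 h and 2 h. No filter gave 1 and 2 over both breeds, 0 and 3 in Holstein cultures, 1 at 8 h in Angus cultures, and 0 and 1 between breeds at 2 h and 8 h. The quasi-likelihood test gave 0 at 8 h in Angus cultures, 0 between breeds at 0 h and 0 for the interaction at 8 h. Without the 4 libraries counted otherwise the counts were 1 and 2 over both breeds, 0 and 2 in Holstein cultures, 1 at 8 h in Angus cultures, 0 and 2 between breeds at 0 h and 2 h, and 0 for the interaction at 8 h. With single animals left out they were 1 to 2 and 2 to 4 over both breeds (2 h and 8 h), 0 and 2 to 3 in Holstein cultures, 0 to 1 and 1 to 2 in Angus cultures, 0 to 2, 0 to 2 and 1 to 3 between breeds, and 0 and 0 to 1 for the interactions. The cause was not tested.

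With the replicate number as a block, which pairs the hours of an animal, the counts were 5 at 2 h over both breeds, 5 at 2 h in Angus cultures and 2 for the interaction at 8 h. Equal numbers in the 2 breeds name different animals (mean r of deviations −0.112, −0.080 and −0.090 over the hours), and there the block gave 0 at 2 h and 1 at 8 h. Over all rows, the block raised the calls from 4436 to 9575 and from 2606 to 8282 (2 h and 8 h, both breeds), from 3505 to 7268 and from 3017 to 7210 (Holstein), from 2799 to 7281 and from 804 to 4269 (Angus), and from 88 to 862 and from 28 to 528 (interactions).

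Other counts over all rows that moved by more than 1.5 times, apart from single animals left out, were 1435 (Angus at 8 h) and 133 (interaction at 2 h) with DESeq2, 337 (Angus at 8 h), 1654 (breeds at 0 h), 28 and 0 (interactions at 2 h and 8 h) with the quasi-likelihood test, 1637 (Holstein at 8 h), 429 (breeds at 0 h, 2816 before) and 7 (interaction at 8 h) without the 4 libraries, and 2905 (2 h, both breeds) and 54 (interaction at 2 h) with symbol rows only, where fewer rows are tested. With single animals left out the counts over all rows ran from 3544 to 4397 and from 1809 to 2667 (2 h and 8 h, both breeds), from 2266 to 2638 and from 1904 to 2414 (Holstein), from 1499 to 2440 and from 323 to 604 (Angus), from 1544 to 4334, from 2453 to 5602 and from 1771 to 5106 (breeds at 0, 2 and 8 h, the highest of each without Angus animal 3), and from 47 to 145 and from 3 to 84 (interactions, again highest without Angus animal 3, and lowest at 8 h without Holstein animal 4).

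Signs turned only for values that did not pass. Between breeds at 0 h HDAC5 became −0.027 with library totals and ran from −0.00070 to 0.224 with 1 animal left out, and HDAC10 ran from −0.186 to 0.0250 and became 0.105 without the 4 libraries. At 8 h HDAC4 ran from −0.154 to 0.0266 with 1 animal left out, and HDAC7 became −0.0186 with library totals. For the interaction at 2 h, HDAC4 became −0.0632 and HDAC6 −0.194 without the 4 libraries. HDAC7 became 0.0854 with library totals and 0.0129 with symbol rows and ran from −0.1005 to 0.0837 with 1 animal left out. HDAC10 became 0.0128 with library totals and ran from −0.191 to 0.0405. HDAC6 became −0.121 for the interaction at 8 h without the 4 libraries. The interval at the lower coordinates beside HDAC4 ran from −0.0792 to 0.0962 in Angus cultures. For HDAC9 without the 4 libraries, the log2 changes at 2 h became 0.083 over both breeds and 0.182 in Holstein cultures, the breed difference at 0 h −0.066 and the interaction at 2 h 0.169, while its 8 h values kept their sign under every alternative run.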
